A study of Mus musculus with 10 samples.

Results

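The tumor necrosis factor (TNF) ligand and receptor families were followed in heart RNA from a pair of mouse models lacking Larp7. Their members were taken by gene symbol: symbols starting with Tnfrsf or Tnfsf, the adaptors Traf1 to Traf7, and Tnf, Fas, Fasl, Ltb, Ltbr, Eda, Edar, Cd40, Cd27 and Ngfr. This gave 41 genes of the 20982 symbols listed in either deposited table, 32 of 15498 at embryonic day E15.5 and 35 of 15989 in the adult, with 26 in both. The mouse annotation (GENCODE, build GRCm38, the same assembly as mm10) holds 50 symbols that meet the rule. The 9 with no row in either table were Tnf itself, Fasl, Tnfrsf13c, Tnfrsf17, Tnfsf4, Tnfsf8, Tnfsf11, Tnfsf14 and Tnfsf18, and they were not analysed here. Of the 41 genes, 6 had a row at E15.5 only and 9 in the adult only, so that Fas, Tnfrsf12a and Tnfrsf21, for example, could be followed in the adult alone.

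All animals were C57BL/6. At E15.5, 3 samples of whole Larp7-/- hearts were compared with 3 of Larp7+/+ hearts. At 4 months of age, 2 samples of heart apex from Myh6Cre;Larp7f/f mice (labelled mCKO) were compared with 2 from Larp7f/f controls (labelled CTR). In the adult model Cre is driven by the promoter of Myh6, a cardiomyocyte myosin gene, so that fibroblasts, vessels and immune cells of the apex keep the gene, and the controls carry the same floxed alleles; a group with Cre alone is not among the samples. LARP7 is an RNA-binding protein that stabilises the noncoding RNA 7SK, which restrains the transcription elongation kinase P-TEFb. Larp7 itself had 45, 54 and 40 in the knockout hearts and 96, 88 and 103 in the wild-type hearts (log2 change -1.04, SE 0.17, adjusted p = 0.00159, limma), whereas in the adult it had 26 and 24 in the mCKO apex and 26 and 28 in the control apex and was not called (log2 change -0.11, adjusted p = 0.933), so that in the adult the RNA does not check the labels. The labels do not say that samples came from separate animals, so the p-values describe the spread among these samples, which may be technical.

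TNF ligands are mostly trimeric type II membrane proteins, some of them released by proteases, and they act by clustering their receptors. Receptors with a cytoplasmic death domain, such as Tnfrsf1a, Fas and Tnfrsf10b, can recruit caspase-activating adaptors, while the others bind TRAF proteins directly and pass the signal to NF-kappaB and MAP kinases. Decoy receptors bind ligand without signalling. In the heart, TNF acting through Tnfrsf1a and Tnfrsf1b, and TWEAK (Tnfsf12) acting through Fn14 (Tnfrsf12a), have been studied in remodelling and failure.

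Values are per-million values that the authors rounded to whole numbers, each sample summing to between 998498 and 1001508, so sequencing depth is unknown and a gene that stands at 2 can be known no better than to the whole number. Whether they are corrected for gene length is not known, and levels are compared between samples of a gene and not between genes. Within nearly every gene, a knockout sample and the control sample with its number have values whose sum is fixed. This held within 2 for 8328 of 8366 genes with a mean of at least 10 at E15.5, for 8642 of 8658 in the adult, and for all 32 and all 35 members. The SDs of the groups of a gene are therefore not independent, and the test (limma, with the replicate number as a block) counts the mirrored deviations once. Fold changes compare knockout with control on the log2(value + 1) scale, which understates the change of low genes. In these bulk samples fewer cells of a type and less RNA per cell cannot be told apart.

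Across the members, 1 receptor gene rose in the knockout hearts at E15.5 and 2 rose in the adult mCKO apex, and 0 fell in either (limma, adjusted p under 0.05 over all tested genes). On simulated tables the share of false calls in this fit was above the nominal one, so calls near the threshold are weak. An unadjusted p under 0.05 was reached by 8 of 28 tested members at E15.5, where 13.9% of all tested genes reached it, and by 3 of 31 in the adult, where 12.4% did. At E15.5 28 members reached a value of 1 in at least 3 samples and were tested, and Tnfrsf9 was the member that rose. The same test called 0.529% of all 13609 tested genes as higher and 0.103% as lower. In the adult 31 members were tested, and Tnfrsf12a and Tnfrsf23 rose, while 2.34% of all 14835 tested genes were called as higher and 0.95% as lower. With median-of-ratios scaling the share of higher calls among all called genes was 66.7% in place of 83.7% at E15.5 and 57.6% in place of 71.1% in the adult. The 3 called genes kept their calls and direction under that scaling. The median log2 change was 0.33 over the tested members and 0.11 over all tested genes at E15.5, and 0.02 over the tested members and 0.08 over all tested genes in the adult.

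The start regions of the 3 called genes are shown as sequence only, and they differ in the short motifs they hold. Each is 250 bases before to 50 after an annotated start, from RefSeq on build GRCm38.p6, written 5′ to 3′ on the strand of the gene; capitals mark matches to an NF-kappaB site or to the AP-1 motif TGANTCA on either strand.
Tnfrsf9, downstream of 2 annotated starts, chr4:150927749-150928048, plus strand: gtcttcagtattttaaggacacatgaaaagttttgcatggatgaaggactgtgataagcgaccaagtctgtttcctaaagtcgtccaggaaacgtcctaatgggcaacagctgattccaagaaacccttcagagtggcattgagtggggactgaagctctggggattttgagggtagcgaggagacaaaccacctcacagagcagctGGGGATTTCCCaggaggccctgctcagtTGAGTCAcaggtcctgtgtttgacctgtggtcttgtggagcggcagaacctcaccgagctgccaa
Tnfrsf12a, chr17:23677400-23677699, minus strand: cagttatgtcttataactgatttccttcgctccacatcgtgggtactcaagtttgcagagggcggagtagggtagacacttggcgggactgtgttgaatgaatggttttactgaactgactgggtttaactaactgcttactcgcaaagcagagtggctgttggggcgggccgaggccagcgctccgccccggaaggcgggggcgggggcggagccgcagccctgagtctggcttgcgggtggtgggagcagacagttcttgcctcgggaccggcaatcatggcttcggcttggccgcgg
Tnfrsf23, chr7:143685826-143686125, minus strand: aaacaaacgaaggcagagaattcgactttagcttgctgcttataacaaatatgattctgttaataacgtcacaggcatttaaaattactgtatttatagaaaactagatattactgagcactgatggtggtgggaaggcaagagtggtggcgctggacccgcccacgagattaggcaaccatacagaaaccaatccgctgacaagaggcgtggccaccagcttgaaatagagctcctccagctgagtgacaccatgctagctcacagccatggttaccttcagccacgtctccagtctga
In the Tnfrsf9 window a pair of overlapping NF-kappaB matches runs from 43 to 33 bases upstream of the start, and an AP-1 match, TGAGTCA, from 15 to 9 bases upstream. The other Tnfrsf9 start held no match to any of the 6 motifs searched, which also included the cAMP response element TGACGTCA, the TEAD motif GGAATG, the CArG box and the p53 half-site. These letters are not in the Tnfrsf12a and Tnfrsf23 windows either, which had a GC content of 59.7% and 46.3% against 51% for the Tnfrsf9 window. An NF-kappaB match was present in 4.51% of all 32851 start windows of that length and in 4 of the 37 windows of the 33 members in the table (Ltb, Tnfrsf8, Tnfrsf9 and Traf3). An AP-1 match was present in 7.81% of all windows and in 6 of the 37, which belong to Fas, Tnfrsf8, Tnfrsf9, Tnfsf13 and Tnfsf13b. A match describes the sequence and is not evidence of binding.

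The first question was which members differed in the embryonic Larp7 knockout heart. Tnfrsf9, which encodes the costimulatory receptor 4-1BB (CD137) of activated T cells and other cells, was higher in the knockout. It had values of 22, 22 and 19 in the knockout hearts, against 4, 4 and 7 in the wild-type hearts. All 3 knockout samples were high and all 3 wild-type samples low, with no overlap. Means were 21 ± 1.73 in the knockout and 5 ± 1.73 in the wild type (SD, n = 3 each), a ratio of 4.2 that lies between 3.73 and 4.78 if both means were off by a rounding step of 0.5 in opposite directions. The log2 change was 1.91 (95% interval 1.39 to 2.42, adjusted p = 0.000101, limma). For this gene the log2 change in the authors' deposited table is 2.01, with p = 0.000846 before adjustment and no adjusted p.

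The Tnfrsf9 call held without any single sample, with adjusted p between 1.13e-10 and 0.000849 (limma). With the block, leaving out a sample also leaves its same-numbered partner without a comparison. The log2 change was 1.76 without either number 1 or either number 2 sample, and 2.20 without either number 3 sample. In these fits the median of the prior degrees of freedom was infinite, against 27.5 in the reported fit. Their p-values thus rest on spread pooled over genes. It was lost with the block and no rounding variance (adjusted p = 0.473), with a filter at a mean of 10 (adjusted p = 0.332) and when the prior degrees of freedom were held at 4 (adjusted p = 0.56), settings under which 0 of all genes were called at E15.5 (limma; 1422, 1100 and 1150 of all genes had an unadjusted p under 0.05). Tnfrsf9 lies on the plus strand of chromosome 4 from 150914562 to 150946102 (GRCm38), in an interval that also overlaps the minus-strand gene Camta1, but the exons of both share 0 bases. In the adult apex Tnfrsf9 was at 1 and 0 in the mCKO samples and at 0 and 0 in the controls, too low to be tested. Its ligand Tnfsf9 had no row at E15.5 and stood at 1 in all 4 adult samples.

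**Figure D1:**
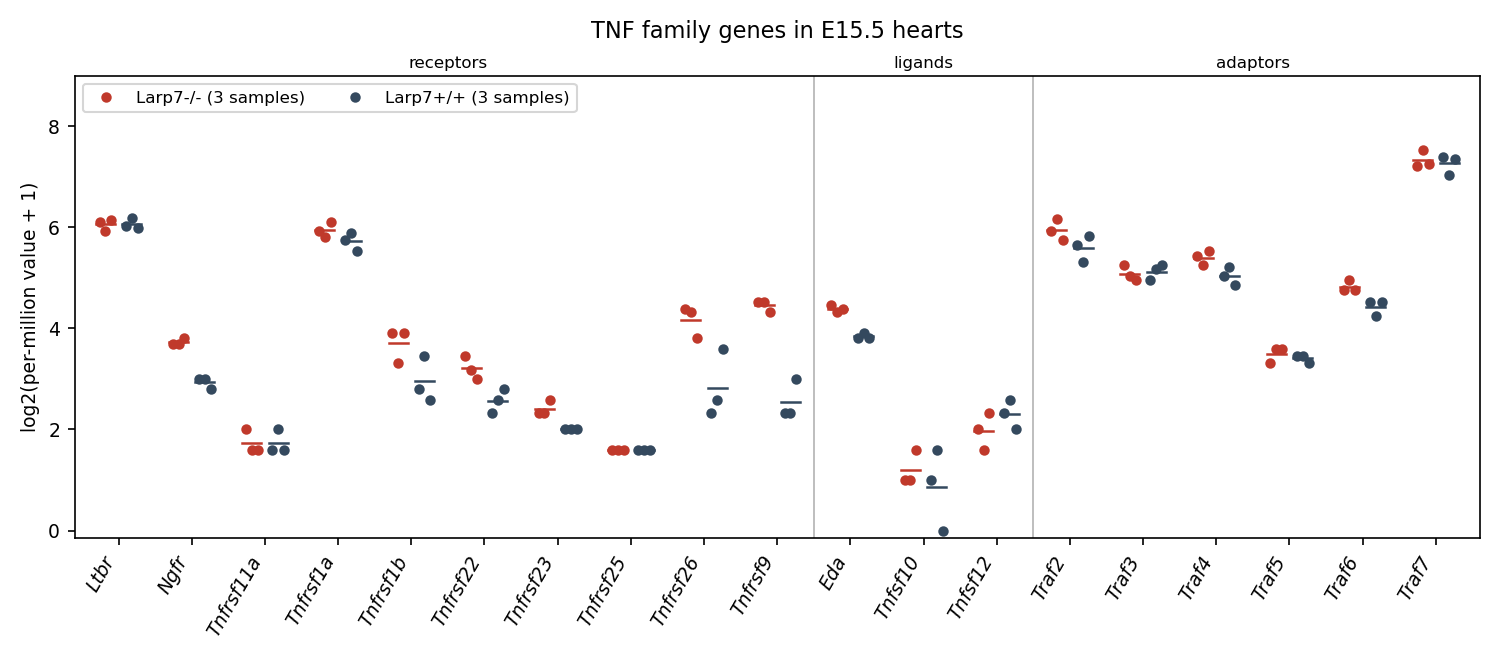
Per-sample values of the TNF receptor, ligand and TRAF adaptor genes described in the text at E15.5, as log2(per-million value + 1). A point is drawn for each of 3 Larp7-/- and 3 Larp7+/+ heart samples, and a bar at the group mean. Tnfrsf9, Tnfrsf26, Ngfr and Eda are separated, while Ltbr, Traf3 and Traf7 overlap.

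The other receptors were not called at E15.5, although several had knockout values wholly above the wild type. In 8 of the 28 tested members (28.6%) all 3 knockout values lay above all 3 wild-type values, and in 0 they lay below. Over all tested genes these shares were 19.3% and 8.75%. The 8 were the receptors Tnfrsf9, Tnfrsf26, Ngfr, Tnfrsf22 and Tnfrsf23, the ligand Eda and the adaptors Traf4 and Traf6.

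Tnfrsf26, a mouse receptor of the cluster of decoy TRAIL receptors, had 20, 19 and 13 in the knockout hearts, against 4, 5 and 11 in the wild-type hearts. The number 3 samples of both genotypes lay close together, and the other pairs far apart. Its log2 change of 1.34 (95% interval 0.57 to 2.11) did not pass the test (adjusted p = 0.132, limma), whereas without number 3 of the knockout it was 1.90 with an adjusted p of 2.74e-07, and without number 3 of the wild type 1.90 with an adjusted p of 2.58e-07. Without number 1 it was 0.98 and not called (adjusted p = 0.191 for that knockout sample left out and 0.136 for that wild-type sample). It was called when low values were not filtered (adjusted p = 5.13e-05). Without number 2 it was 1.15, again past the threshold (adjusted p = 0.0225 for that knockout sample left out and 0.0103 for that wild-type sample). These leave-out fits have the limit given above for Tnfrsf9. The authors' deposited table gives an unadjusted p of 0.0327 for Tnfrsf26.

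Tnfrsf22, a decoy receptor for TRAIL, had 10, 8 and 7 in the knockout hearts, against 4, 5 and 6 in the wild-type hearts, and was not called (log2 change 0.64, adjusted p = 0.298, limma). Tnfrsf23, its close relative and likewise a decoy, had 4, 4 and 5, against 3, 3 and 3 (log2 change 0.41, adjusted p = 0.584). These genes and Tnfrsf26 lie in a row on chromosome 7, minus strand, Tnfrsf26 from 143607659 to 143628722, Tnfrsf22 from 143634806 to 143649661 and Tnfrsf23 from 143665809 to 143685872 (GRCm38). Of the 50-base stretches of the annotated transcripts, 17.3% of those of Tnfrsf22 and 18% of those of Tnfrsf23 occur in both genes, so that reads from the shared part may have been split or dropped in the authors' counting. Tnfrsf26 shared none with either. The noncoding gene E230032D23Rik runs along the cluster on the opposite strand and covers 4.14% of the exonic bases of Tnfrsf23 and 3.33% of those of Tnfrsf26; whether counting used the strand is not known.

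Ngfr, the p75 neurotrophin receptor of neural crest derivatives and other cells, had 12, 12 and 13 in the knockout hearts, against 7, 7 and 6 in the wild-type hearts. The samples of each group were within 1 of each other and the groups were separated, yet the log2 change of 0.80 (95% interval 0.29 to 1.31) was not called (adjusted p = 0.136, limma). It was called with no replicate block (adjusted p = 0.0249). The Schwann and neural crest markers had 2 of 5 genes listed at E15.5, both with a positive change, and their summed level was 26 to 30 in the knockout and 20 to 24 in the wild type; their part in the Ngfr values was not tested.

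The receptors for TNF itself were measured in both genotypes. Tnfrsf1a, the death-domain receptor TNFR1, had 60, 55 and 68 in the knockout hearts, against 53, 58 and 45 in the wild-type hearts, and the groups overlapped (log2 change 0.23, 95% interval -0.11 to 0.57, adjusted p = 0.566, limma). It was 0.05 without either number 3 sample and 0.38 without either number 2 sample. Tnfrsf1b, the TRAF-binding receptor TNFR2, had 14, 9 and 14, against 6, 10 and 5, with the number 2 samples in the reverse order of the others. Its log2 change of 0.76 was not called (adjusted p = 0.234, limma), and it reached 1.21 and passed when sample 2 was left out of the knockout (adjusted p = 0.0134) or of the wild type (adjusted p = 0.0147). It was 0.48 and not called without either number 3 sample. These leave-out fits have the limit given above for Tnfrsf9. Ltbr, the lymphotoxin beta receptor, had 68, 60 and 70 in the knockout hearts, against 64, 72 and 62 in the wild-type hearts, with equal means of 66 (95% interval of the log2 change -0.33 to 0.33). Tnfrsf11a, which encodes RANK, and the death-domain receptor Tnfrsf25 stood at 2 or 3 in all 6 samples.

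The remaining listed receptors at E15.5 were low in every sample. Cd40, a receptor of B cells, macrophages and endothelium, stood at 7 or 8 in all 6 samples. Tnfrsf13b, which encodes the B cell receptor TACI, ranged from 5 to 8 in the knockout hearts and from 3 to 5 in the wild-type hearts (adjusted p = 0.277, limma). Tnfrsf4, Tnfrsf8, Tnfrsf11b, Tnfrsf18 and Edar had 3 or less in every sample, and Tnfrsf8 and Edar were too low to be tested. So were the ligand Tnfsf15 and Tnfsf13os, a transcript opposite the ligand gene Tnfsf13, both at 1 or 0.

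Among the ligands listed at E15.5, Eda was the 1 of 6 with a mean of at least 10. Eda, on the X chromosome, encodes ectodysplasin, a ligand of Edar and Eda2r. It had 21, 19 and 20 in the knockout hearts, against 13, 14 and 13 in the wild-type hearts, without overlap. Its log2 change of 0.55 (95% interval 0.12 to 0.98) was not called (adjusted p = 0.227, limma) but was with no replicate block (adjusted p = 0.0293). Eda2r, an ectodysplasin receptor whose symbol the rule does not take, had 14, 15 and 14 in the knockout hearts, against 7, 6 and 7 in the wild-type hearts, with a log2 change of 1 that was called just inside the threshold (adjusted p = 0.0496, limma). The call is absent under the 3 settings in which 0 genes were called at E15.5. It is weak, since on simulated tables the share of false calls in the reported fit was above the nominal one. Edar, the other receptor, was at 1 or 0 in all samples. Tnfsf12, which encodes TWEAK, had 3, 2 and 4 in the knockout hearts, against 4, 5 and 3 in the wild-type hearts. Tnfsf10, which encodes TRAIL, had 1, 1 and 2, against 1, 2 and 0. Tnfsf13, Tnfsf15 and Ltb were at 2 or less, and the read-through gene Tnfsfm13 at 3 or less. Tnfsf12 and Tnfsf13 share 46.8% and 57.3% of their 50-base stretches with Tnfsfm13, on chromosome 11, so that their values are uncertain.

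The TRAF adaptors were all listed at E15.5 and none was called (limma; 1 of the 7, Traf4, had an unadjusted p under 0.05, as had 13.9% of all tested genes). Traf4, an adaptor prominent in embryonic epithelia and neural tissue, had 42, 37 and 45 in the knockout hearts, against 32, 36 and 28 in the wild-type hearts (log2 change 0.36, adjusted p = 0.352). Traf6, the adaptor that also serves interleukin-1 and Toll-like receptors, had 26, 30 and 26, against 22, 18 and 22 (log2 change 0.39, adjusted p = 0.36). Both genes were separated between the groups by small steps. Traf2, the main adaptor of TNFR2 and of the TNFR1 complex, had 60, 71 and 53 in the knockout hearts, against 49, 39 and 56 in the wild-type hearts, with overlap (log2 change 0.35, adjusted p = 0.376; 0.10 without either number 2 sample and 0.57 without either number 3 sample). Traf3, a brake on the noncanonical NF-kappaB pathway, had 37, 32 and 30, against 30, 35 and 37 (log2 change -0.04). Traf5 had 9, 11 and 11, against 10, 10 and 9. Traf7 had 148, 185 and 152, against 167, 131 and 163, and Traf1 stood at 1 or 2 in all 6 samples.

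The second question was which members differed at 4 months in the apex of hearts carrying Myh6Cre and floxed Larp7. Tnfrsf12a, which encodes Fn14, the receptor of TWEAK that is induced in injured and growing tissue, was higher in the mCKO apex. It had 101 and 109 in the mCKO samples, against 47 and 38 in the control samples, and the groups were widely separated. Means were 105 ± 5.66 in the mCKO and 42.5 ± 6.36 in the controls (SD, n = 2 each), a ratio of 2.47, and the log2 change was 1.29 (95% interval 1.00 to 1.58, adjusted p = 1.48e-14, limma). That interval and p rest on spread pooled over genes of similar level, since each gene has 1 residual degree of freedom here. With the prior degrees of freedom held at 4 it was not called (adjusted p = 0.83), nor was any other gene (limma, 880 at an unadjusted p under 0.05). In the authors' deposited table its log2 change is 1.24, with p = 0.000645 before adjustment.

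Tnfrsf12a lost its call without rounding variance (adjusted p = 0.435 with the replicate block and 0.072 with no replicate block, limma). Over all 14 alternative settings its log2 change was 1.14 to 1.44. Its ligand Tnfsf12 had 18 and 16 in the mCKO apex, against 19 and 22 in the control apex. All mCKO values were below the controls, by a margin of 1, and the log2 change of -0.26 (95% interval -0.62 to 0.11) was not called (adjusted p = 0.667). The gene for Fn14 lies on chromosome 17, minus strand, from 23675445 to 23677468 (GRCm38) and has no row in the E15.5 table.

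Marker lists of other cells went both ways in the adult. The fibroblast list had 7 of 8 genes positive with none called, and its summed level was 2270 to 2587 in the mCKO and 1185 to 1500 in the controls. The epicardial list had 7 of 7 positive with 2 called (Krt19 and Aldh1a2), and a summed level of 77 to 116 in the mCKO and 24 to 64 in the controls. Krt19 had 4 and 8 in the mCKO, against 4 and 0 in the controls, so that its number 1 samples were equal. Aldh1a2 had 22 and 29, against 15 and 7, without overlap. The cardiomyocyte list had 4 of 11 genes positive and 7 negative, with Myh7 called higher (1090 and 892 in the mCKO, against 270 and 468 in the controls), and it summed to between 62421 and 63684 in the mCKO and between 65503 and 66764 in the controls. In the fibroblast list Col3a1 had 543 and 373 in the mCKO, against 39 and 208 in the controls, and Pdgfra had 50 and 44, against 44 and 51. The endothelial list had 8 of 8 negative with none called, and summed to 759 to 789 in the mCKO and 823 to 852 in the controls. The smooth muscle and pericyte list had 5 of 8 negative and 1 positive, with none called. No gene of these lists was at 0 in all 4 samples. Their part in the Tnfrsf12a values was not tested.

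**Figure D2:**
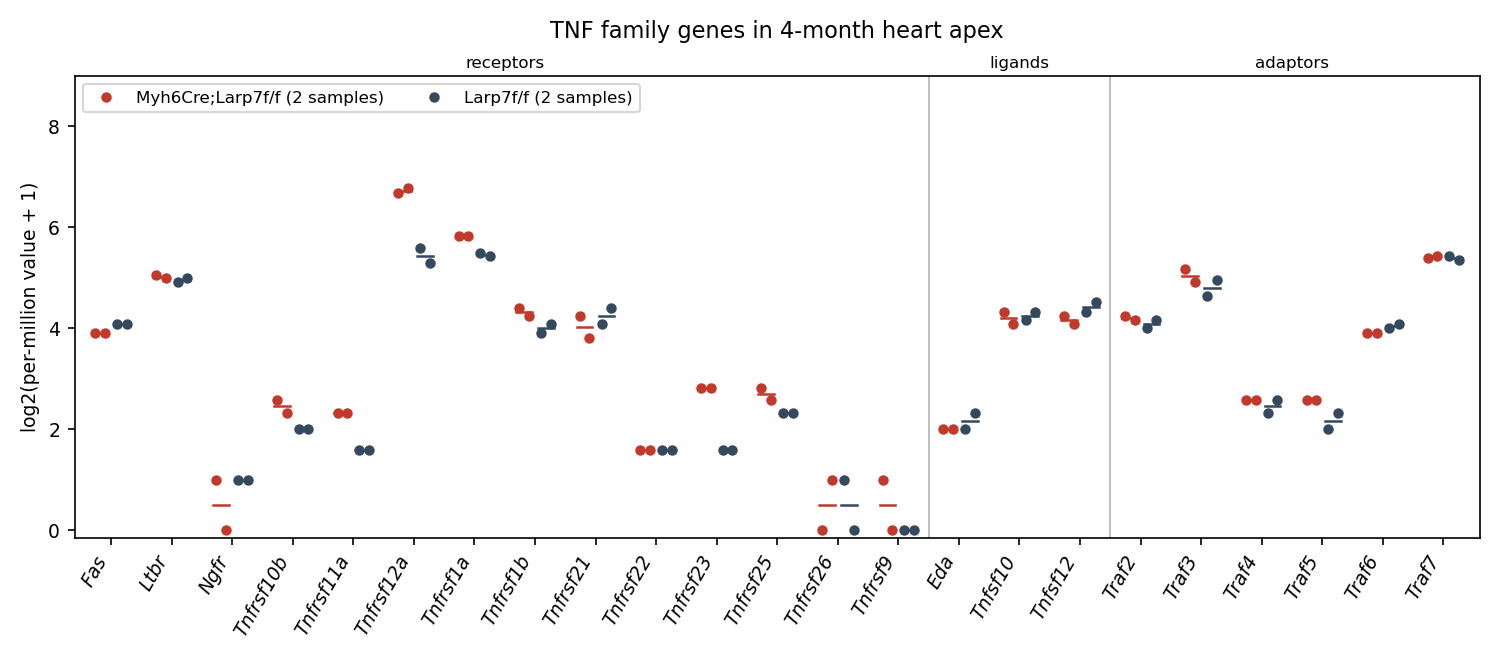
Per-sample values of the TNF receptor, ligand and TRAF adaptor genes described in the text in the adult apex, as log2(per-million value + 1), with a point for each of 2 Myh6Cre;Larp7f/f and 2 Larp7f/f samples and a bar at the group mean. Tnfrsf12a and Tnfrsf23 are separated widely, and most other genes lie within a small step of each other.

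Tnfrsf23 was the other member that rose in the adult. This decoy receptor of the chromosome 7 cluster had 6 and 6 in the mCKO apex, against 2 and 2 in the control apex. The values were the same within each group, at a level where rounding allows a ratio between 2.2 and 4.33. The log2 change was 1.22 (95% interval 0.51 to 1.94, adjusted p = 0.0288, limma). The call was lost with the prior degrees of freedom held at 4 (adjusted p = 0.83, limma) and without the robust option (adjusted p = 0.0534). Leaving out a sample cannot alter the log2 change of Tnfrsf23, because its values are the same within each group. The call is weak, since on simulated tables the share of false calls in the reported fit was above the nominal one. The authors' deposited table gives an unadjusted p of 0.294 for Tnfrsf23. Its neighbour Tnfrsf22, with which it shares sequence, had 2 in all 4 samples, and Tnfrsf26 had 0 and 1 in the mCKO apex, against 1 and 0 in the control apex.

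The TNF receptors in the adult were higher in the mCKO samples without passing the test. Tnfrsf1a had 56 and 56 in the mCKO apex, against 44 and 42 in the control apex (log2 change 0.37, 95% interval 0.08 to 0.67, adjusted p = 0.198, limma). It was called with no replicate block (adjusted p = 0.0474 with rounding variance and 0.0401 without it, limma). Leaving out a single sample gave log2 changes of 0.34 to 0.41. Tnfrsf1b had 20 and 18, against 14 and 16 (log2 change 0.32, adjusted p = 0.537). The macrophage markers had 10 of 12 genes positive with 1 called (Fcgr1), none at 0 in all 4 samples, and a summed level of 756 to 759 in the mCKO and 639 to 644 in the controls; their part in these values was not tested.

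Apart from Tnfrsf1a, which was higher as given above, death receptors went either way in the adult, and none was called. Fas, which triggers apoptosis on binding Fas ligand, had 14 and 14 in the mCKO apex, against 16 and 16 in the control apex (log2 change -0.18, adjusted p = 0.877, limma). Tnfrsf21, the death receptor DR6, had 18 and 13, against 16 and 20 (log2 change -0.21, adjusted p = 0.797). Tnfrsf10b, the mouse TRAIL death receptor, had 5 and 4, against 3 and 3 (log2 change 0.45, adjusted p = 0.716). Tnfrsf25 had 6 and 5, against 4 and 4 (log2 change 0.37, adjusted p = 0.782). The ligand Tnfsf10 had 19 and 16, against 17 and 19, with overlap.

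The other adult receptors, ligands and adaptors showed small steps. Tnfrsf11a had 4 and 4 in the mCKO apex, against 2 and 2 in the control apex (log2 change 0.74, adjusted p = 0.437, limma). It was called in both fits without rounding variance (adjusted p = 0.028 with the replicate block and 0.000146 with no replicate block). Ltbr had 32 and 31, against 29 and 31. Of the adaptors, Traf3 had 35 and 29, against 24 and 30 (log2 change 0.24, adjusted p = 0.657), Traf5 had 5 and 5, against 3 and 4, and Traf6 had 14 and 14, against 15 and 16. Traf2 had 18 and 17, against 15 and 17, Traf4 had 5 and 5, against 4 and 5, and Traf7 had 41 and 42, against 42 and 40. Eda stood at 3 or 4 and Ngfr at 1 or 0. Cd27, Cd40, Tnfrsf13b, Tnfrsf14, Tnfrsf19, Edar, Ltb, Traf1, Tnfsf9, Tnfsf13, Tnfsf13b and Tnfsfm13 stood at 4 or less in all 4 samples; of these Cd27, Edar and Ltb, and also Tnfrsf9, were too low to be tested. In 8 of the 31 tested members (25.8%) both mCKO values lay above both controls, against 29.3% of all tested genes, and in 3 (9.68%) they lay below, against 12.8%.

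**Figure D3:**
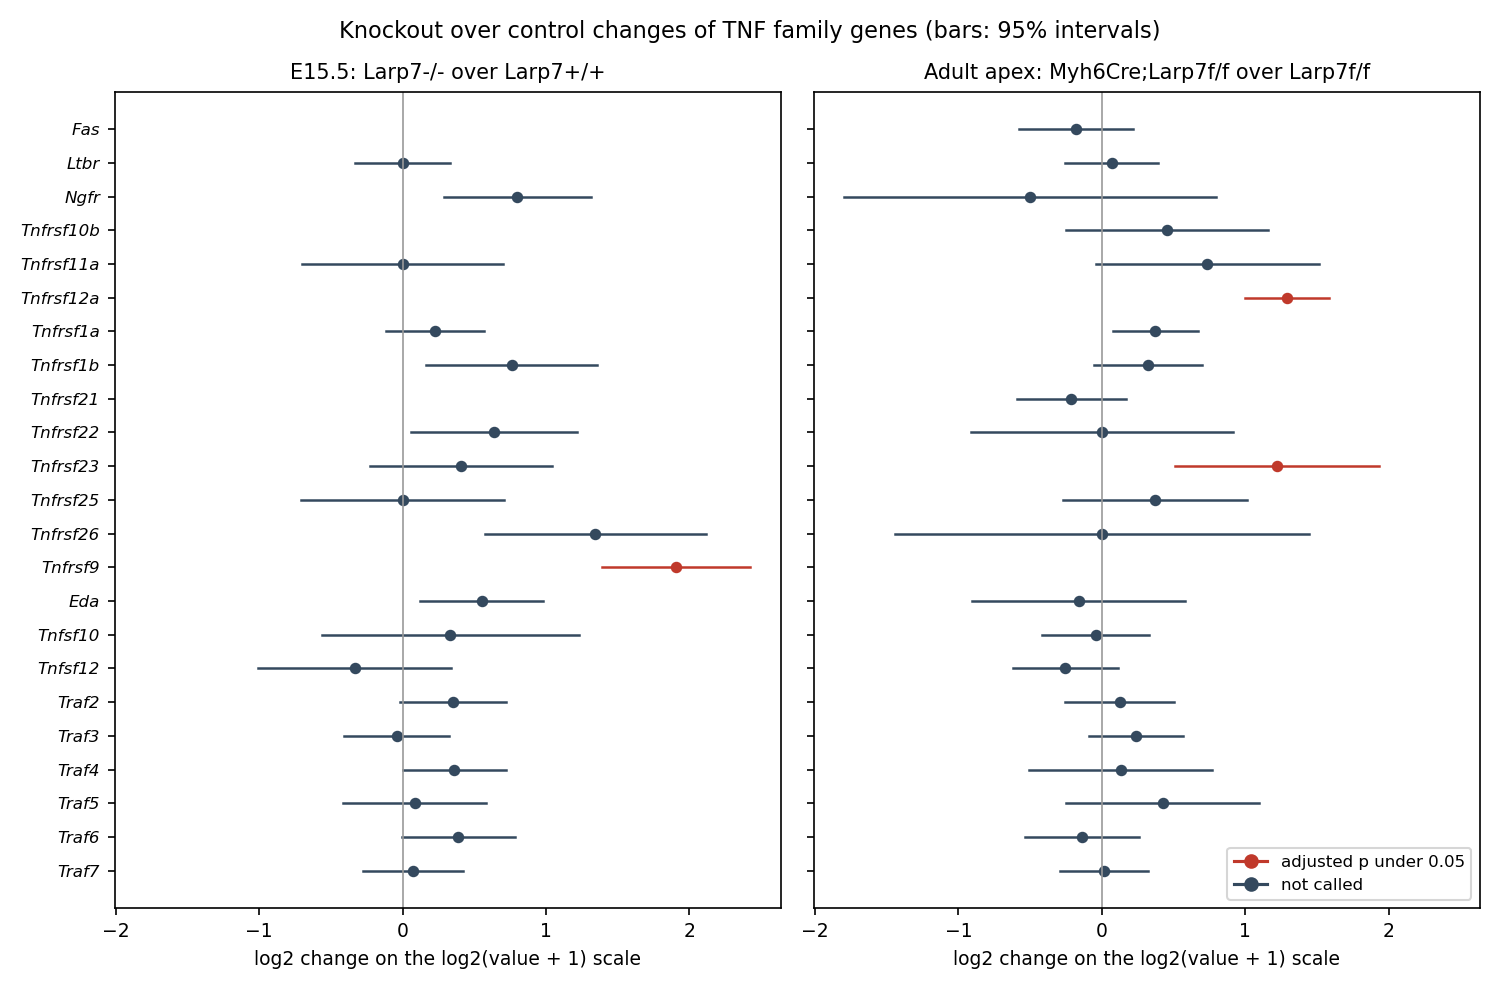
Log2 changes of knockout over control with 95% intervals for the described TNF family genes at E15.5 (left) and in the adult apex (right), on the log2(value + 1) scale, with called genes in red. Tnfrsf9 at E15.5 (1.91) and Tnfrsf12a (1.29) and Tnfrsf23 (1.22) in the adult are the called genes, and Tnfrsf26 at E15.5 (1.34) had a larger change than both adult genes with a wider interval and no call; a gene without a bar had no row or was too low to be tested in that table.

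The genes downstream of the receptors were counted in lists. At E15.5 none of 17 tested receptor adaptor and cell death genes, 14 tested NF-kappaB subunits, kinases and inhibitors, 16 tested NF-kappaB target genes and 5 tested ligand sheddases and partners was called (limma, over all genes). The lists are incomplete there, with no row for 11 of 28, 7 of 21, 11 of 30 and 1 of 6 genes. Ripk1, Rela, Nfkbia and Adam17 were among the missing. The median log2 changes of these lists were 0.12, 0.20, 0.29 and 0.54, against 0.11 over all tested genes. In the adult 1 of 27, 1 of 21 and 1 of 26 tested genes of the first 3 lists rose and 0 fell, where 2.34% of all tested genes rose; these shares are near that of all genes. Otulin, a deubiquitinase that trims linear ubiquitin chains at TNFR1, had 32 and 27 in the mCKO apex, against 17 and 21 in the control apex (log2 change 0.61, adjusted p = 0.0203, limma). Tnip1, an inhibitor of NF-kappaB that binds the ubiquitin editor A20, had 66 and 72, against 42 and 36 (log2 change 0.81, adjusted p = 1.96e-05). Lcn2, lipocalin 2, an NF-kappaB target of macrophages and stressed cells, had 7 and 11, against 5 and 1 (log2 change 1.5, adjusted p = 0.000487, limma). Its number 1 samples stood at 7 and 5, and its number 2 samples at 11 and 1. That p rests on spread pooled over genes. These calls, like all adult calls, were absent with the prior degrees of freedom held at 4. The adult medians were 0.12 over 27 adaptors and cell death genes, 0.15 over 21 NF-kappaB genes, 0.21 over 26 targets and 0.08 over 6 sheddases and partners, against 0.08 over all tested genes. At E15.5 Tnip1 had 54, 57 and 62 in the knockout hearts, against 44, 42 and 36 in the wild-type hearts, and was not called (log2 change 0.50, adjusted p = 0.159, limma).

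Markers of the lymphoid cells in which many of these receptors are known were mostly unlisted or low. A missing row does not show low RNA, because the cardiomyocyte genes Actn2, Myh6, Myh7, Ryr2 and Pln had no row at E15.5 either. At E15.5, of 10 T and NK cell markers 1 was listed, Lck, with 7, 9 and 6 in the knockout hearts and 3, 3 and 5 in the wild-type hearts, uncalled (adjusted p = 0.187, limma), and of 7 B cell markers 1 was listed, Cd79b, at 3 or less. In the adult 6 T and NK cell markers were listed with a summed level of 5 to 9 in the mCKO and 3 to 7 in the controls, and 2 B cell markers with 5 to 6 in the mCKO and 1 to 3 in the controls. Macrophage markers at E15.5 (7 of 12 listed, 4 positive, none called) summed to 97 to 114 in the knockout and 85 to 102 in the wild type. Stratified epithelium markers (6 of 8 listed, 6 positive, none called) summed to 233, 65 and 66 in the knockout and 104, 62 and 62 in the wild type. Sample 1 had the highest sum in both groups. Cardiomyocyte markers (6 of 12 listed, 5 negative, none called) summed to 15181 to 18973 in the knockout and 19836 to 23629 in the wild type. Fibroblast markers (5 of 8 listed, 4 positive, Pdgfra called) summed to 4561 to 5476 in the knockout and 3683 to 4601 in the wild type. Smooth muscle and pericyte markers (3 of 8 listed, 2 negative) summed to 146 to 169 in the knockout and 171 to 195 in the wild type, and Rgs5 of this list was called lower (39, 47 and 42, against 83, 76 and 80). Epicardial markers (4 of 7 listed, none called) summed to 207 to 299 in the knockout and 146 to 238 in the wild type, and endothelial markers (7 of 8 listed, none called) to 1193 to 1303 in the knockout and 1102 to 1213 in the wild type. The part of these cells in the values of Tnfrsf9 and the other members was not tested.

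Levels of the 26 members listed in both tables were set side by side, with no test, because the tables were scaled separately and whole heart is set against apex. In 13 of them all 6 embryonic samples lay above all 4 adult samples, in 3 they lay below, and 10 overlapped. The same shares over all genes listed in both tables were not computed. Whether these counts are particular to the members is therefore not known. Tnfrsf9 (4 to 22 in the embryo, 0 to 1 in the adult), Tnfrsf26 (4 to 20, 0 to 1), Ngfr (6 to 13, 0 to 1), Traf4 (28 to 45, 4 to 5), Traf7 (131 to 185, 40 to 42) and Eda (13 to 21, 3 to 4) were among those above. The ligands Tnfsf10 (0 to 2 in the embryo, 16 to 19 in the adult) and Tnfsf12 (2 to 5, 16 to 22) and the receptor Tnfrsf25 (2, 4 to 6) were the 3 below. Tnfrsf1a (45 to 68, 42 to 56) and Traf3 (30 to 37, 24 to 35) overlapped.

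**Figure D4:**
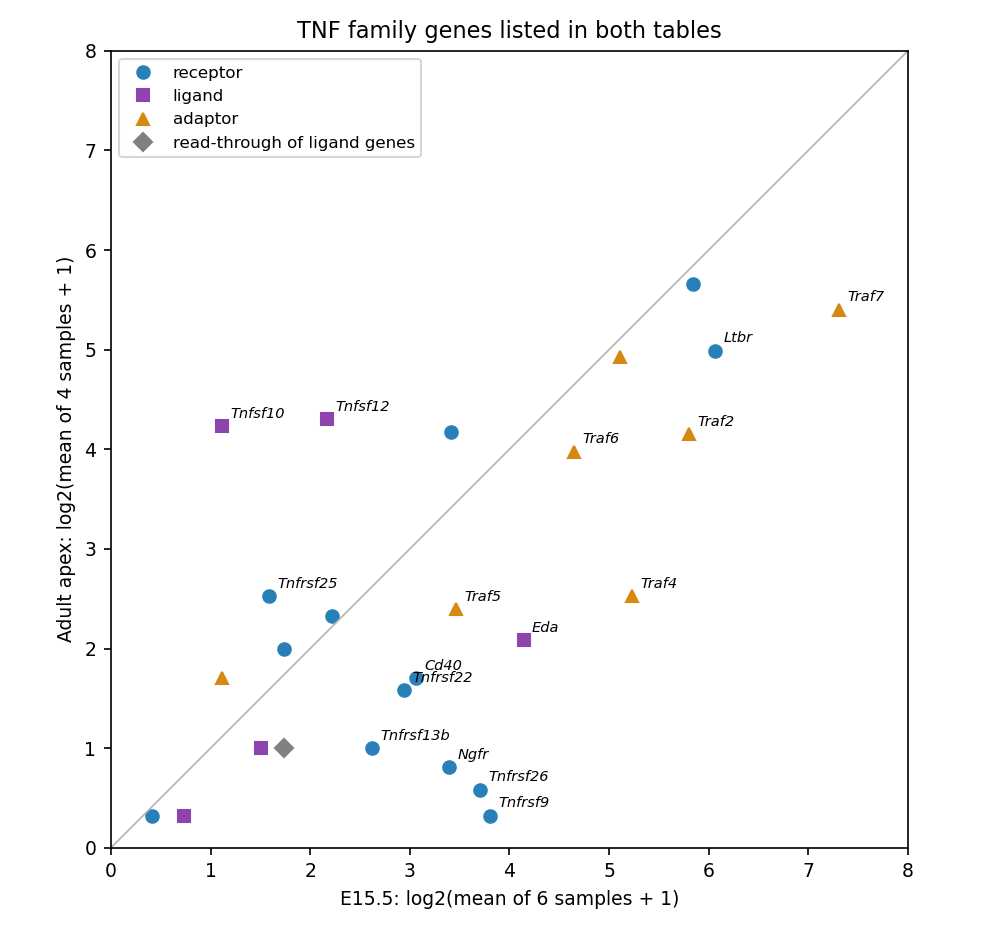
Mean level of the 26 TNF family genes listed in both tables, at E15.5 (horizontal, 6 samples) and in the adult apex (vertical, 4 samples), each as log2(mean per-million value + 1), with names for the 16 genes whose samples do not overlap between the tables. Tnfsf10, Tnfsf12 and Tnfrsf25 lie above the diagonal and Traf4, Ngfr, Tnfrsf26 and Tnfrsf9 far below it.

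How far the 3 calls rest on the test was drawn for each setting.

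**Figure D5:**
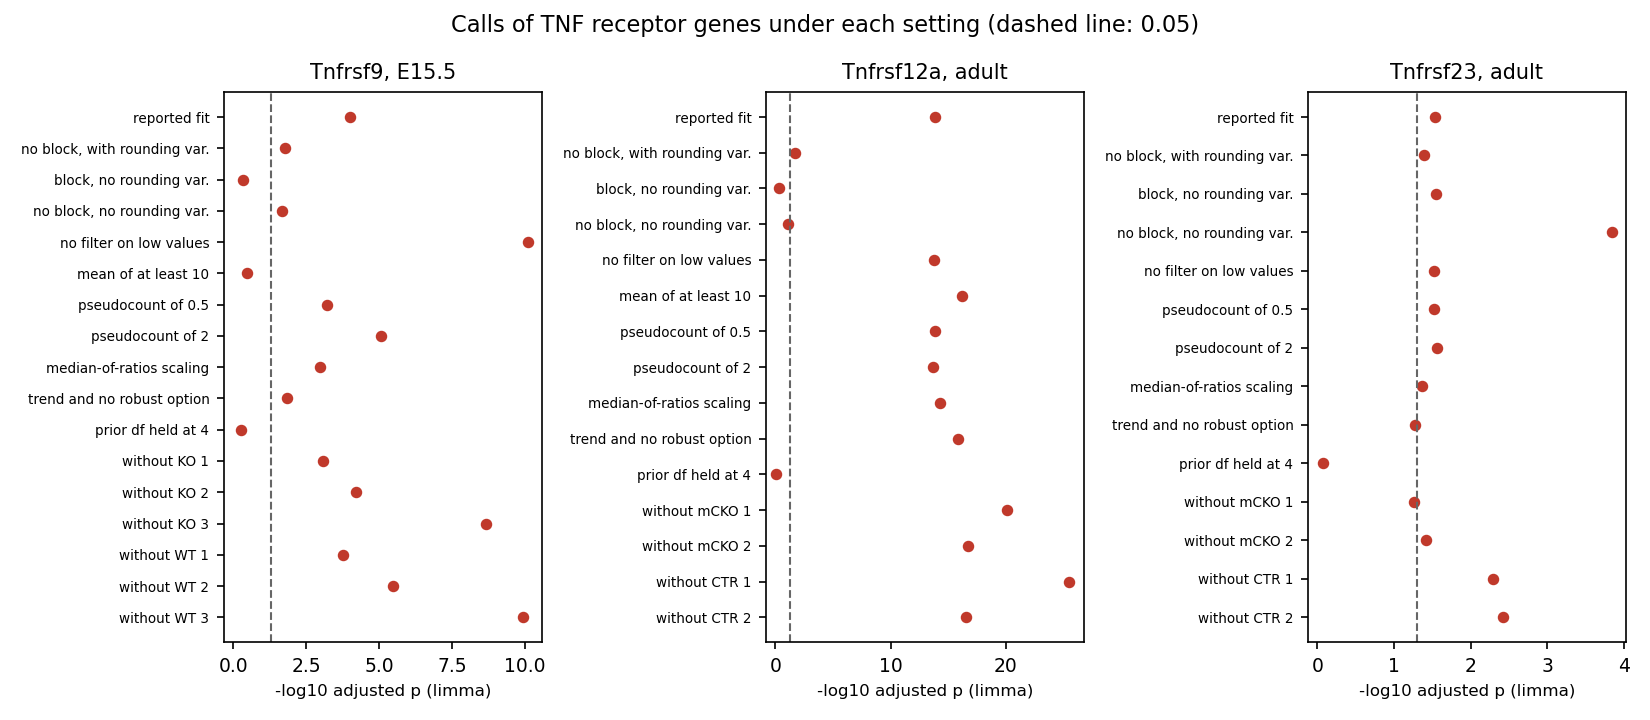
Negative log10 of the adjusted p (limma) for Tnfrsf9 at E15.5 and for Tnfrsf12a and Tnfrsf23 in the adult under the reported fit and each alternative, with a dashed line at 0.05. Points left of the line are settings without a call: 3 for Tnfrsf9, 3 for Tnfrsf12a and 3 for Tnfrsf23, among them the fit without mCKO sample 1. Adult fits that left out a sample also had no replicate block.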

How the data were processed

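RNA from 6 embryonic and 4 adult heart samples was sequenced by the submitters; per the submitters' processing notes the tools were HISAT2 and HTSeq, with no version, and the build was mm10. The embryonic and the adult table that the authors deposited each hold 1 score per gene in every sample, which is a per-million value rounded to whole numbers; no source used here gives its scaling. The tables also hold the authors' log2 fold changes and p-values, per the file headers. Same-numbered knockout and control values add to a fixed total, so that their deviations are mirror images (correlation across genes of -0.82 to -0.80 in the embryo, -0.81 in the adult); this is a property of the deposited values, not a pairing stated in the labels.

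Each table was fitted on its own, knockout over control, on log2(value + 1) using limma 3.58.1 (R 4.3.3), for genes reaching 1 in at least as many samples as a group holds, with the replicate number as a block, a rounding variance of 0.0833 (in squared units of the values) carried to the log scale at the gene's mean and added to its variance, eBayes with trend and robust options, and Benjamini-Hochberg adjustment at 0.05. The prior degrees of freedom had a median of 27.5 in the embryo and were infinite for the adult. The fit was tested on simulated tables with fixed totals, in which the share of false calls in the reported fit was above the nominal one. Alternatives changed the block, rounding variance, filter, pseudocount, scaling, prior or samples. In the adult, the fits that left out 1 sample kept 1 sample in a group and also had no replicate block. Members, lists and the fit were chosen with earlier results of these data known. Per-sample values are given for members called in either model, without overlap between groups, or with a mean of at least 10.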

Additional observations from a re-analysis of the deposited data

Results flagged for a closer look

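Traf6 was set apart because its samples lay in opposite order in the models. At E15.5 all 3 knockout samples were above all 3 wild-type samples (26, 30 and 26, against 22, 18 and 22, log2 change 0.39). In the adult both mCKO samples were below both controls (14 and 14, against 15 and 16, log2 change -0.14). The difference between the models was not tested, and neither change was called (adjusted p = 0.36 and 0.915, limma). Adult values that differ by 1 are at the rounding step. In the other 25 genes listed in both tables this was not seen.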

How the results depend on the processing

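The number of members called higher at E15.5 was 1, and it was 3 with no replicate block, with or without rounding variance (Tnfrsf9, Ngfr and Eda), 0 with the replicate block but rounding variance left out, 2 when low values were not filtered, 0 when a mean of 10 was required and 0 with the prior degrees of freedom held at 4; leaving out 1 sample gave 1 to 3. In the adult it was 2, and it was 3 with no replicate block. It was 1 when a mean of 10 was required, 1 with no robust option and 0 with the prior degrees of freedom held at 4. Adult fits that left out 1 sample kept 1 sample in a group and had no replicate block, so their calls are not counted here. The number called lower in the adult was 0, and 1 (Fas) in both fits that left out rounding variance, blocked or not; these fits lost Tnfrsf12a and gained Tnfrsf11a among the higher calls. Over all genes at E15.5, 72 were called higher and 14 lower, 430 and 174 with no replicate block, 0 and 0 with the block and no rounding variance, 701 and 339 with neither, 480 and 121 with no filter, 0 and 0 with a mean of at least 10, 26 and 13 with median-of-ratios scaling, 39 and 7 with a pseudocount of 0.5, 138 and 25 with a pseudocount of 2, 11 and 1 with no robust option and 0 and 0 with the prior held at 4; leaving out 1 sample gave 171 to 422 higher and 40 to 87 lower. In the adult 347 were called higher and 141 lower, 252 and 157 with no replicate block, 833 and 297 with the block and no rounding variance, 1133 and 489 with neither, 285 and 210 with median-of-ratios scaling and 0 and 0 with the prior held at 4. The E15.5 fits that left out 1 sample had an infinite median of the prior degrees of freedom, against 27.5 in the reported fit. Leaving out 1 sample turned the sign of uncalled log2 changes, which ranged at E15.5 from -0.0865 to 0.129 for Ltbr, -0.29 to 0.79 for Tnfsf10, -0.21 to 0.0841 for Traf3, -0.00599 to 0.19 for Traf5 and -0.14 to 0.20 for Traf7, and in the adult from -0.43 to 0.00804 for Tnfrsf21, -0.16 to 0.076 for Tnfsf10 and -0.017 to 0.0517 for Traf7, which was -0.0439 with median-of-ratios scaling. The cause of these shifts was not tested. Depth is unknown, and rounding limits members at 5 or less.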

Other observations

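Traf1, an adaptor that TNF signalling itself induces, stood at 2, 1 and 1 in the knockout hearts and at 1 in all wild-type samples. In the adult it stood at 3 and 2 in the mCKO apex, against 2 and 2 in the control apex. Relt, a TNF receptor superfamily gene whose symbol the rule does not take, had 8, 7 and 7 in the knockout hearts, against 6, 6 and 6 in the wild-type hearts (log2 change 0.25, adjusted p = 0.726, limma), and 4 and 3 in the mCKO apex, against 3 and 4 in the control apex. Eda2r had 8 and 8 in the mCKO apex, against 4 and 4 in the control apex, the same direction as in the embryo, and was not called there (log2 change 0.85, adjusted p = 0.109, limma).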
